A study of Mus musculus with 8 samples.

Results

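RNA-sequencing of aortic tissue was examined for 9 genes of the renin-angiotensin system, chosen by name among the 35896 genes of the count table. They are the angiotensin receptors Agtr1a, Agtr1b and Agtr2, the precursor Agt, the peptidases Ace, Enpep, Anpep and Mme, and the prorenin receptor Atp6ap2. The 16 male C57BL6 mice were 11 weeks old at the start, and no transgene or deletion is named for them. AngII mice received angiotensin II from an osmotic minipump at 2.8 mg/kg/day for 2 weeks and were killed at the end of the infusion. AngII+2W and AngII+3W mice received the same infusion and were killed 2 or 3 weeks after it had ended, whereas CTRL mice were untreated littermates of the same age. CTRL mice were killed at each of these times, and the sources used here do not say which of them went into which CTRL library or mention a sham pump. Each group had 2 libraries, and each library pooled a part of the aorta of 2 mice, so that the 2 libraries of a group came from separate mice.

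The renin-angiotensin system sets blood pressure and salt balance. Renin cuts angiotensinogen, the product of Agt, to angiotensin I, and angiotensin converting enzyme (Ace) turns it into angiotensin II. Angiotensin II constricts arteries and promotes growth and inflammation of the vessel wall through the AT1 receptor, which mice encode in both Agtr1a and Agtr1b. The AT2 receptor (Agtr2) is abundant in fetal tissue and scarce in most adult tissue, and is described as opposing many AT1 effects. Angiotensin II is broken down by membrane peptidases. Enpep (aminopeptidase A) removes its first residue to give angiotensin III, Anpep (aminopeptidase N) shortens angiotensin III to angiotensin IV, and Mme (neprilysin) cleaves angiotensin I and other vasoactive peptides. Atp6ap2 binds prorenin and is also a part of the proton pump of cell organelles.

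The pair of AT1 receptor genes is shown first, since their coding sequences are similar. The coding sequence lies in 1 exon in both genes and has 1077 bases without the stop codon in each, of which 978 (90.8%) are identical and 99 differ. The longest run without a difference has 66 bases. The first 120 coding bases are printed below from the GRCm38 transcripts, with capitals at the 8 bases that differ between the copies (Agtr1a at chr13:30380954-30381073 on the plus strand, Agtr1b at chr3:20316321-20316440 on the minus strand).
Agtr1a: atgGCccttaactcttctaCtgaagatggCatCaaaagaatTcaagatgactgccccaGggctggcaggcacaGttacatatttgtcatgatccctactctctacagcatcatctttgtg
Agtr1b: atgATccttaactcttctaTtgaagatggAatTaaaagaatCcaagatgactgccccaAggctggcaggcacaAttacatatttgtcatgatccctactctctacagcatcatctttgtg
The similar stretch covered 51.3% of the longest Agtr1a transcript and 52.7% of the longest Agtr1b transcript. The reads of the study were longer than the longest run without a difference, so a full read within the coding sequence spans a base that differs. How the authors' transcript quantification assigned reads of this stretch was not tested, so the level of each AT1 receptor gene keeps some uncertainty. Agtr1a spans chr13:30336441-30382867 on the plus strand and Agtr1b spans chr3:20314473-20367177 on the minus strand.

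Promoters are shown for the 3 genes whose level rose in AngII (below), Agtr2, Enpep and Anpep. RefSeq promoter sequences on GRCm38.p6, from 250 bases before to 50 bases after a start site, were matched for 8 of the 9 genes. Both strands were searched for 6 motifs, of which the following are in capitals here: the TATA box (TATAAA or TATATA), the STAT site (TTCNNNGAA) and the GC box (GGGCGG). The form TATATA was added after the Agtr2 sequence had been read.
Agtr2, chrX:21484374-21484673, plus strand: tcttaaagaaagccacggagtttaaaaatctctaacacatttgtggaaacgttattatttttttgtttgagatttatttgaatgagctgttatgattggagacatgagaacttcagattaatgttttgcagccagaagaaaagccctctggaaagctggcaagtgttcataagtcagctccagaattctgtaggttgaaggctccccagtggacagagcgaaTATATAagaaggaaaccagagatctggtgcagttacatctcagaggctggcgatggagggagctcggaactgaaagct
Enpep, chr3:129332700-129332999, minus strand: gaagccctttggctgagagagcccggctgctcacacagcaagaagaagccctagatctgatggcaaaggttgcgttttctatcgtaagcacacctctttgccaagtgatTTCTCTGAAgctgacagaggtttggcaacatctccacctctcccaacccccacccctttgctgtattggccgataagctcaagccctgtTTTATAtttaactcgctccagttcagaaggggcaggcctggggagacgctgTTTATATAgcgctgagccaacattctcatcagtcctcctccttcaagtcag
Anpep, chr7:79848161-79848460, minus strand: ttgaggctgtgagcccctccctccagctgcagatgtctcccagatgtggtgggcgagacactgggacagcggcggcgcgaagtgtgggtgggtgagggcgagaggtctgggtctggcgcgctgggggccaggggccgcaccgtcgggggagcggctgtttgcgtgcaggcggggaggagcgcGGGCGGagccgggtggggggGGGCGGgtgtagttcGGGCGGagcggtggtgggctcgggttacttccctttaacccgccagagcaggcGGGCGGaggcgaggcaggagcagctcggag
The Agtr2 window held TATATA from -28 to -23 relative to the start site and had a GC content of 41.3%. The Enpep window held a TATA box on the minus strand from -52 to -47 and overlapping ones around the start site from -1 to 7, and the palindromic STAT site from -141 to -133. The Anpep window held 4 GC boxes, from -68 to -63, -48 to -43, -33 to -28 and 21 to 26, and its GC content was 72.3%, against a median of 52.7% over all 32851 promoters. A TATA box was found in 17.1% of all these promoters, the STAT site in 8.3% and the GC box in 35.7%. None of the 3 windows held the other motifs searched, which were AP-1 (TGANTCA, in 7.81% of promoters), the CArG box (1.63%) and the NF-kappaB site (4.51%). No motif was found in all 3 windows. A TATA box was found in both Agtr2 and Enpep, in Agtr2 only through the form added after its sequence had been read. A match describes letters only.

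At the end of the infusion, 3 of the 9 genes were higher than in CTRL and none was lower. Agtr2 was absent from both CTRL libraries and present in both AngII libraries, Enpep rose 1.78-fold and Anpep rose 3.33-fold. Neither AT1 receptor gene, nor Ace, Agt, Mme or Atp6ap2, passed the test. A gene counts as changed here where the adjusted p of edgeR's quasi-likelihood test, corrected by the Benjamini-Hochberg method over all 17182 genes tested (FDR), was below 0.05. Of all genes tested, 5.10% passed in this comparison, and 2.90% passed as higher. All 9 genes passed the filter on low counts, Agtr2 only through the AngII libraries. Without Agtr2, 2 of 8 genes rose. The median log2 fold change was 0.75 over the 9 genes and 0.54 without Agtr2, beside -0.01 over all genes tested. Both AngII libraries lay above both CTRL libraries for 7 of the 9 genes, and this was so for 24.4% of all genes tested. With 2 libraries in each group and 4 residual degrees of freedom, p-values measure only the spread between pools of mice. Leaving out either CTRL or either AngII library left none of the 3 genes below the threshold, and leaving out either AngII+2W library left Agtr2 alone. Fewer cells of a type and less RNA per cell cannot be told apart in this tissue.

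**Figure D1:**
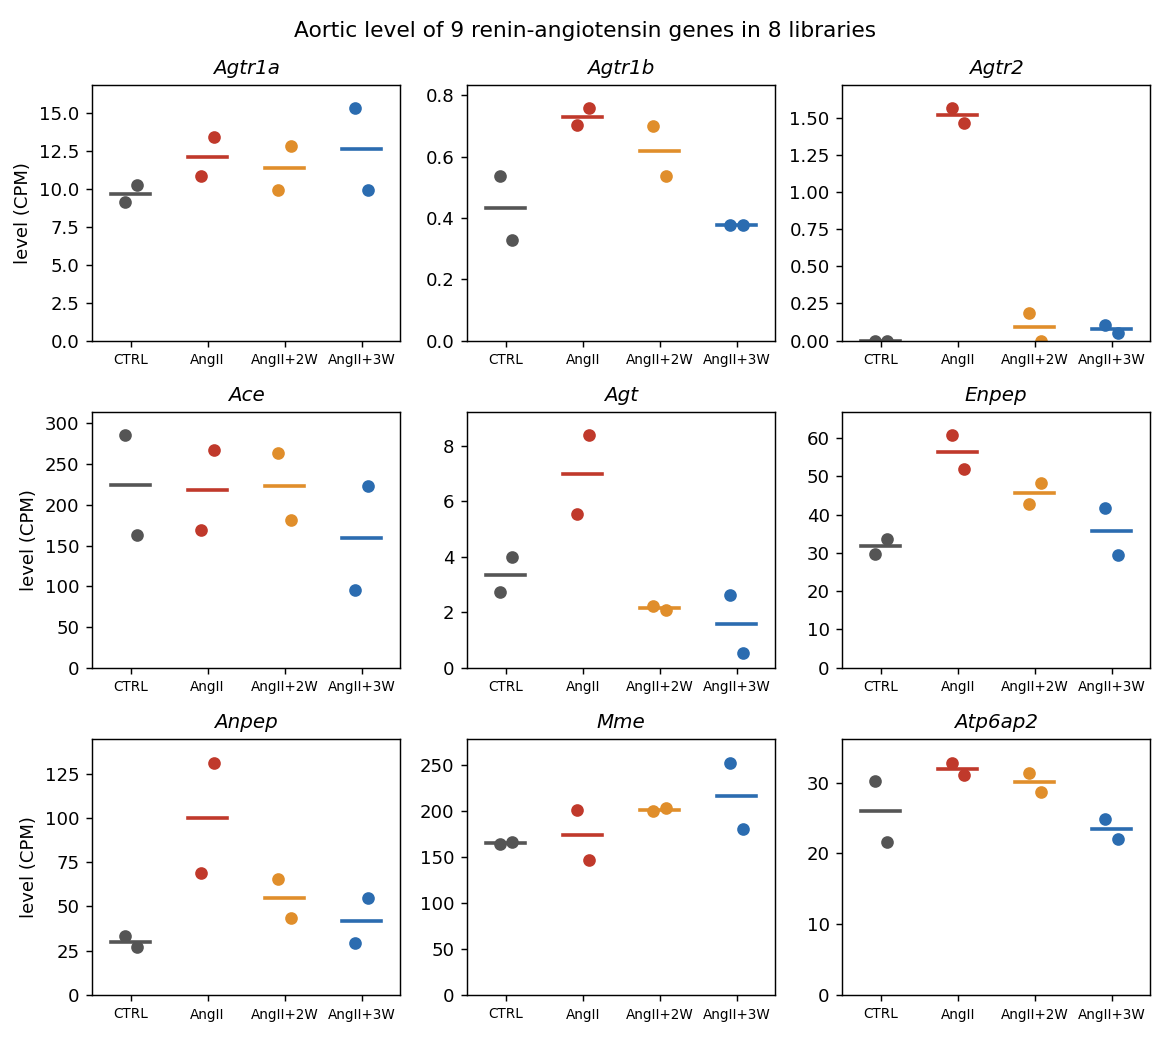
Level of each of the 9 genes in CPM (counts relative to the scaled library total, vertical axis, starting at 0) in each library (points) of the 4 groups, with a horizontal bar at the mean of the 2 libraries. The AngII libraries lie above the CTRL libraries for Agtr2, Enpep and Anpep, and Agtr2 is at 0 in both CTRL libraries and at 1.57 and 1.47 CPM in AngII.

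Agtr2 was the receptor gene that rose in AngII. It had 0 counts in both CTRL libraries, 29 and 31 counts in the AngII libraries, 4 and 0 counts in AngII+2W and 2 and 1 counts in AngII+3W. The level was thus 1.57 and 1.47 CPM (counts per 1000000 counts of the scaled library total) in AngII and at most 0.187 CPM in any other library. Every AngII library lay above every library of the other groups. A count of 0 allows a level of up to 0.146 and 0.141 CPM in the CTRL libraries (3 counts), and against that limit Agtr2 was at least 10.6-fold higher in AngII. The edgeR quasi-likelihood test of AngII against CTRL used the counts and not this limit (FDR = 0.0269). Agtr2 passed the filter on low counts only through the AngII libraries, so its call as higher is not independent of the filter. The level 2 weeks after the infusion was 0.066 of the AngII level (95% interval 0.0174 to 0.178) and 3 weeks after it 0.0532 (0.0107 to 0.163), where the intervals cover counting error only. These declines did not pass the test across all genes (FDR = 0.112 and 0.0816), and Agtr2 in AngII+2W and AngII+3W was at or near the limit that a count of 0 allows. Agtr2 lies at chrX:21484544-21489164 on the plus strand of GRCm38.

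Agtr1a, the main AT1 receptor gene of the mouse, was the most expressed of the 3 angiotensin receptor genes. CTRL libraries held 9.11 and 10.3 CPM, AngII libraries 10.9 and 13.4 CPM, AngII+2W libraries 9.9 and 12.8 CPM, and AngII+3W libraries 15.3 and 9.94 CPM. Both AngII libraries lay above both CTRL libraries, whereas the libraries of the later groups overlapped with CTRL. On the log2 scale, AngII differed from CTRL by 0.33 (95% interval -0.25 to 0.90, FDR = 0.528), AngII+2W by 0.23 (-0.34 to 0.80, FDR = 0.811) and AngII+3W by 0.38 (-0.19 to 0.96, FDR = 0.57). None of these values passed the test, and the intervals include differences of up to 0.96 on the log2 scale. Agtr1b was near the limit of what this depth can measure, with 7 to 16 counts in each library. It stood at 0.536 and 0.329 CPM in CTRL and at 0.702 and 0.758 CPM in AngII, and the difference of 0.75 on the log2 scale did not pass (-0.31 to 1.81, FDR = 0.422). AngII+2W libraries held 0.7 and 0.537 CPM and AngII+3W libraries 0.376 CPM each, and the AngII+3W libraries lay within the range of CTRL.

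Agt, the precursor of all angiotensin peptides, had its highest levels in AngII and its lowest after the infusion. CTRL libraries held 56 and 85 counts (2.73 and 4 CPM) and AngII libraries 103 and 177 counts (5.56 and 8.39 CPM). AngII+2W libraries held 2.24 and 2.09 CPM, and AngII+3W libraries 49 and 10 counts (2.63 and 0.537 CPM). The AngII libraries lay above all others, and both later groups lay below CTRL in every library. The log2 fold change in AngII against CTRL was 1.05 (-0.22 to 2.32, FDR = 0.341), and the values of -0.63 in AngII+2W (FDR = 0.762) and -1.08 in AngII+3W (FDR = 0.503) did not pass either. Against AngII, Agt differed by -1.68 in AngII+2W (SE 0.57, FDR = 0.219) and by -2.13 in AngII+3W (SE 0.59, FDR = 0.124). These did not pass the test with all 8 libraries, whereas DESeq2 called the AngII+3W difference (FDR = 0.00626). Its value rested on the AngII+3W libraries, with -3.68 without replicate 1 and -1.46 without replicate 2, neither of which passed. The difference of AngII+3W from CTRL was likewise -2.64 without replicate 1 and -0.41 without replicate 2, and neither passed. The AngII+2W difference from AngII passed in a fit of those 4 libraries alone (-1.68, FDR = 0.0279) and with either AngII+3W library left out (FDR = 0.0497 and 0.0494). A fit chosen after seeing the data left out CTRL replicate 1 and AngII+3W replicate 1, the libraries with the most cardiac muscle marker counts. The differences from AngII were then -1.68 in AngII+2W and -3.68 in AngII+3W. In AngII+3W this value rested on replicate 2 alone, with its 10 Agt counts. Agt lies at chr8:124556534-124569706 on the minus strand.

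Enpep, the aminopeptidase that removes the first residue of angiotensin II, rose in AngII. It stood at 29.8 and 33.6 CPM in CTRL and at 60.7 and 51.8 CPM in AngII, which gave a log2 fold change of 0.83 (SE 0.18, 95% interval 0.40 to 1.25, edgeR FDR = 0.0452). With either CTRL or either AngII library left out, it was 0.71 to 0.94 (FDR = 0.113 to 0.194). The level was 42.8 and 48.3 CPM in AngII+2W and 41.6 and 29.5 CPM in AngII+3W. The AngII+2W libraries thus lay between those of CTRL and AngII without overlapping with either, and the AngII+3W libraries overlapped with CTRL. The difference of AngII+2W from CTRL was 0.52 (0.10 to 0.95) with an unadjusted p of 0.0217 and an FDR of 0.368. The difference of AngII+3W from AngII was -0.66 (SE 0.18, FDR = 0.125), and it passed with DESeq2 alone (FDR = 0.0298). Enpep lies at chr3:129269175-129332720 on the minus strand.

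Anpep, the aminopeptidase that shortens angiotensin III, had the widest spread between the AngII libraries of the genes that rose. It stood at 33.3 and 26.8 CPM in CTRL and at 68.7 and 131 CPM in AngII, which gave a log2 fold change of 1.74 (SE 0.39, 0.82 to 2.65, edgeR FDR = 0.0496). The AngII libraries did not overlap with CTRL, and replicate 2 lay well above replicate 1. The log2 fold change was 1.19 without AngII replicate 2 (FDR = 0.281) and 2.13 without AngII replicate 1 (FDR = 0.061). The FDR lay just under the threshold, and it was 0.0525 with DESeq2 size factors, 0.0633 with library totals and 0.0572 with limma-voom. Anpep stood at 65.4 and 43.6 CPM in AngII+2W (log2 fold change against CTRL 0.86, FDR = 0.491) and at 29.1 and 54.5 CPM in AngII+3W (0.48, FDR = 0.655). Both AngII+2W libraries lay above CTRL and below AngII, and the AngII+3W libraries overlapped with CTRL. Anpep lies at chr7:79821803-79861059 on the minus strand.

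The summed fibroblast and macrophage markers were also higher in AngII than in CTRL. In each group, the library with the higher Anpep level also had the higher sum of both lists. Enpep ran the other way, with the lower sums in the library with its higher level. The 5 fibroblast markers summed to 444 to 745 CPM in CTRL, 1204 to 1559 in AngII, 809 to 1428 in AngII+2W and 522 to 993 in AngII+3W, and 1 of the 5 (Lum, a matrix proteoglycan) rose in AngII. The 5 macrophage markers summed to 137 to 220.2 CPM in CTRL, 437 to 554 in AngII, 183 to 243 in AngII+2W and 133 to 230 in AngII+3W, and 3 of the 5 (Adgre1, Cd68 and Mrc1) rose in AngII. Of all genes tested, 2.90% passed as higher in AngII against CTRL and 2.20% as lower. The 5 mural (pericyte) markers had a lower sum in AngII, at 1132 to 1236 CPM against 1437 to 1463 in CTRL. Their sum was 1219 to 1320 CPM in AngII+2W and 943 to 1016 in AngII+3W, and none of the 5 passed in AngII. The members did not all go the same way in AngII. Group means of Rgs5, Cspg4 and Abcc9 were lower than in CTRL, whereas those of Notch3 (133 against 114 CPM) and Kcnj8 (25.2 against 23.7 CPM) were higher. The fibroblast marker Dpep1 stood at 54 and 34.6 CPM in CTRL and at 38.8 and 53.7 CPM in AngII. No marker of these lists was at 0 in all libraries, and the part of these cell types in the Enpep and Anpep results was not tested.

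Ace, which forms angiotensin II and is carried by endothelial cells, was the most abundant of the 9 genes per length of transcript, and its libraries overlapped in every comparison. CTRL libraries held 285 and 162 CPM, AngII libraries 169.5 and 267 CPM, AngII+2W libraries 264 and 181 CPM, and AngII+3W libraries 95.2 and 223 CPM. Libraries of the same group differed by more than the group means did. On the log2 scale, AngII differed from CTRL by -0.04 (-1.07 to 1.00, FDR = 0.977), AngII+2W by -0.01 (-1.04 to 1.02, FDR = 0.998) and AngII+3W by -0.49 (-1.53 to 0.54, FDR = 0.691). The intervals of AngII and AngII+2W are wide and reach about 1 on the log2 scale in both directions. The lowest level was in AngII+3W replicate 1 and the highest in CTRL replicate 1, the libraries with the highest summed cardiac markers (5110 and 4380 CPM). With 1 library left out, the AngII+3W value ranged from -1.29 (without AngII+3W replicate 2) to -0.0089 (without AngII+3W replicate 1), and it was 0.46 without both cardiac-rich libraries. The 5 endothelial markers summed to between 707 and 969 CPM in all 8 libraries. Ace lies at chr11:105967945-105989964 on the plus strand. Its longest transcript aligned over 299 bases (6.09%) to the antisense gene Gm11651, and since the strand setting of the quantification is not given in the sources used here, reads of this part cannot be assigned to a strand.

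Mme (neprilysin) was abundant in all groups. CTRL libraries held 165 and 167 CPM, AngII libraries 202 and 147 CPM, AngII+2W libraries 200.4 and 203 CPM, and AngII+3W libraries 253 and 181 CPM. Both later groups lay above CTRL in every library, and the AngII libraries lay on either side of it. On the log2 scale, AngII differed from CTRL by 0.07 (-0.40 to 0.55, FDR = 0.889), AngII+2W by 0.28 (-0.19 to 0.76, FDR = 0.69) and AngII+3W by 0.39 (-0.09 to 0.86, FDR = 0.488). None passed the test. Mme lies at chr3:63241537-63386030 on the plus strand.

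Atp6ap2, the prorenin receptor, held 30.3 and 21.6 CPM in the CTRL libraries, 32.8 and 31.1 CPM in those of AngII, 31.3 and 28.7 CPM in those of AngII+2W, and 24.8 and 22 CPM in those of AngII+3W. The AngII libraries lay above those of CTRL and AngII+3W. The log2 fold change in AngII against CTRL was 0.30 (-0.10 to 0.71, FDR = 0.392), and AngII+3W differed from AngII by -0.45 (-0.86 to -0.05) with an FDR of 0.237. Of the longest Atp6ap2 transcript, 18.8% matched the annotated gene Gm36448, so its counts are also uncertain. Atp6ap2 lies at chrX:12587801-12617049 on the plus strand.

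**Figure D2:**
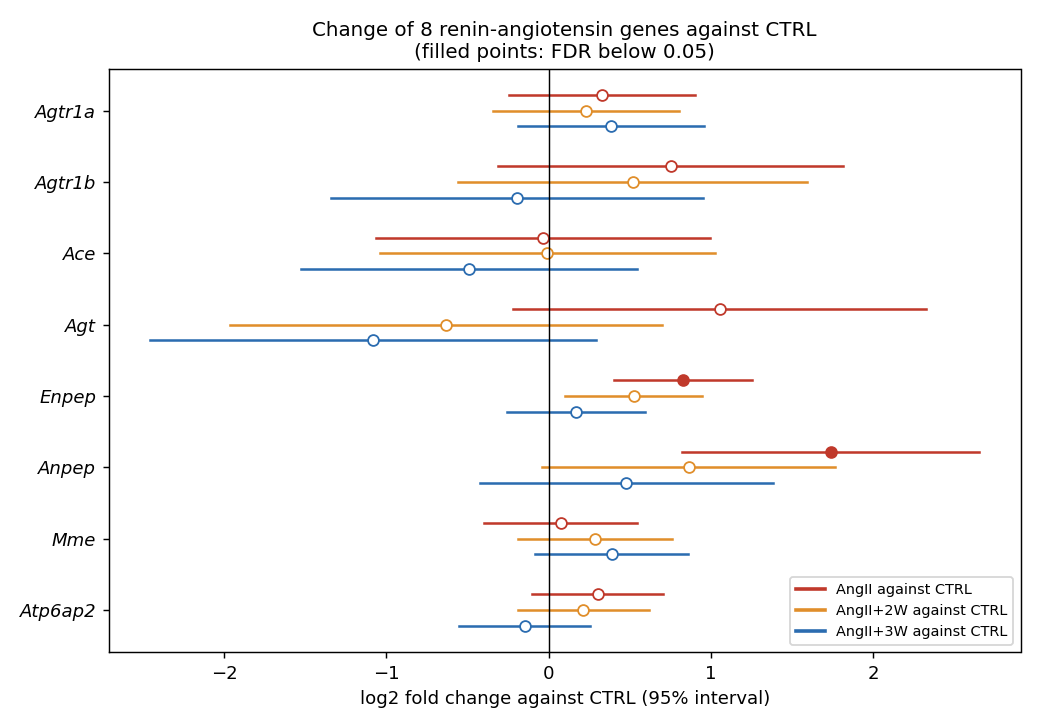
Log2 fold change against CTRL (horizontal axis) of 8 of the 9 genes in AngII, AngII+2W and AngII+3W, with bars for the 95% interval and filled points for an FDR below 0.05. Agtr2 is left out because it had no counts in CTRL. The filled points are Enpep (0.83) and Anpep (1.74) in AngII, and no point of the groups killed after the infusion is filled.

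After the infusion had ended, none of the 9 genes passed the test against CTRL. In AngII+2W against CTRL the smallest FDR was 0.368 (Enpep), 1 gene had an unadjusted p below 0.05 (10.7% of all genes tested did), and 0 of all 17182 genes passed. In AngII+3W against CTRL the smallest FDR was 0.488 (Mme), 0 of the 9 genes had an unadjusted p below 0.05 (12.5% of all genes did), and 0.285% of all genes passed. DESeq2 also found 0 of the 9 genes in both comparisons, where it called 2.17% (AngII+2W) and 3.62% (AngII+3W) of all genes. The median log2 fold change of the 9 genes was 0.28 in AngII+2W and 0.17 in AngII+3W, beside -0.00011 and 0.03 over all genes tested. Without Agtr2, which had no counts in CTRL, the median was 0.26 in AngII+2W and 0.0092 in AngII+3W. Comparisons of the later groups with AngII found 0 of the 9 genes as well, where 0.163% (AngII+2W) and 1.61% (AngII+3W) of all genes passed. In AngII+3W against AngII, 5 genes (Agtr2, Agt, Enpep, Anpep and Atp6ap2), all with lower values in AngII+3W, had an unadjusted p below 0.05. Agtr2 passed the filter on low counts only through the AngII libraries, so its lower value here was set by the filter. Without it, 4 of 8 genes had such a p. Of all genes, 10.4% were lower at this p. DESeq2 called 3 of the 9 genes in this comparison (Agt, Enpep and Anpep), beside 4.74% of all genes called by it as lower. The newer form of the quasi-likelihood test called Agtr2 (FDR = 0.0468), beside 1.63% of all genes called by it as lower. In AngII+3W against AngII+2W, 0 of the 9 genes and 0 of all genes passed, and the smallest FDR was 0.599 (Atp6ap2). The comparisons share the CTRL or AngII libraries, so they are not independent of each other.

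Levels were compared between genes per kilobase of exons (CPM per kb). In CTRL, Ace stood highest at 42.3 ± 16.5 CPM per kb (SD, n = 2), followed by Mme (14.4 ± 0.133), Atp6ap2 (9.90 ± 2.34), Anpep (7.26 ± 1.11), Enpep (6.73 ± 0.574), Agtr1a (3.48 ± 0.29), Agt (1.78 ± 0.475), Agtr1b (0.202 ± 0.0681) and Agtr2 (0). Anpep and Enpep did not differ beyond their SD, and neither did Atp6ap2 and Anpep when both SDs are added. In AngII, Anpep stood next to Ace at 24.2 ± 10.7 CPM per kb, although it differed from neither Ace (41.3 ± 13.1) nor Mme (15.1 ± 3.33) by more than the summed SDs, and Agtr2 (0.456 ± 0.0206) stood above Agtr1b (0.34 ± 0.0185). In AngII+2W and AngII+3W, the mean of Anpep (13.2 ± 3.73 and 10.1 ± 4.34) was above that of Atp6ap2 (11.5 ± 0.70 and 8.93 ± 0.758) by less than the summed SDs, and Agtr2 was last again. The AT1 receptor gene Agtr1a was thus expressed at a higher level per kilobase than Agtr2 in every group.

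**Figure D3:**
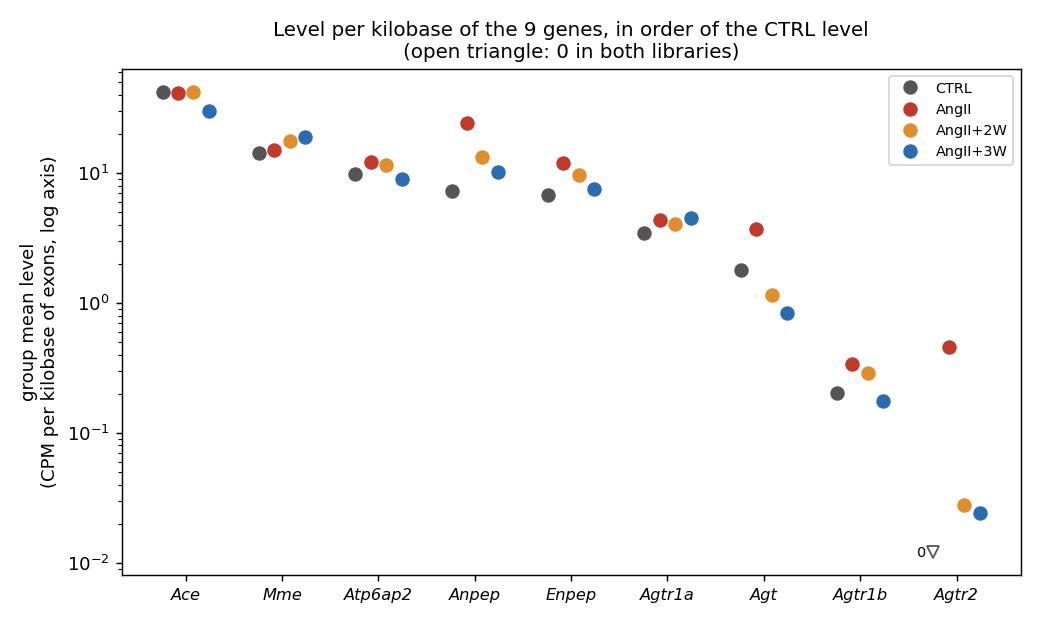
Mean level of each gene in CPM per kilobase of exons (vertical log axis) in the 4 groups, each point the mean of 2 libraries, in the order of the CTRL level. The genes range from 42.3 (Ace) to 0.202 (Agtr1b) in CTRL, and Agtr2, at 0 in CTRL (open triangle, placed at the foot of the axis), reaches 0.456 in AngII.

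The genes whose pattern over the 8 libraries was most like that of a gene that rose were named by Pearson's r of log2 CPM. For Agtr2 these were Knl1 (0.993), a kinetochore protein, Twf1 (0.984), an actin-binding protein, and Mmp19 (0.983), a matrix metalloproteinase. Agtr2 had at most 4 counts in any library outside AngII, so a likeness to it mostly describes a step between AngII and the other groups. Knl1 stood at 7.72 and 8.15 CPM in AngII and at 2.97 to 4.85 CPM in the other libraries. For Enpep they were Sgpl1 (0.981), which degrades sphingosine 1-phosphate, Retsat (0.975), a retinol saturase, and Slc31a1 (0.97), a copper transporter. For Anpep they were Ifi211 (0.99), an interferon-inducible gene, Tlr2 (0.982), a receptor for bacterial lipoproteins, and Thbs2 (0.982), a matrix thrombospondin. Thbs2 stood at 124 and 260 CPM in AngII, like Anpep with the higher value in replicate 2, and at 27.9 to 91.3 CPM elsewhere. These values describe 8 libraries that share 4 groups, and the genes were selected for their likeness.

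Among 26 other genes of the pathway, 20 passed the filter on low counts and 2 changed in AngII, beside 5.10% of all genes tested. Prcp, a lysosomal and cell surface carboxypeptidase that removes the last residue of angiotensin II, rose 1.97-fold. Nr3c2, the mineralocorticoid receptor through which aldosterone acts, fell to 0.639 of its CTRL level. Prcp held 24.1 and 23.2 CPM in the CTRL libraries, 40.4 and 52.6 CPM in those of AngII, 25.9 and 23.7 CPM in those of AngII+2W, and 24.1 and 26.5 CPM in those of AngII+3W. Its log2 fold change in AngII was 0.98 (SE 0.15, edgeR FDR = 0.0175), with the AngII libraries above all others. Nr3c2 held 41.2 and 42.4 CPM in the CTRL libraries, 29.5 and 24 CPM in those of AngII, 42.8 and 40.3 CPM in those of AngII+2W, and 48.7 and 51.9 CPM in those of AngII+3W. Its log2 fold change in AngII was -0.65 (SE 0.13, edgeR FDR = 0.0367), with the AngII libraries below all others. Against CTRL, 0 of the 20 genes passed in AngII+2W or in AngII+3W. Against AngII, Prcp was lower in AngII+3W by -0.88 (FDR = 0.0428) and Nr3c2 was higher by 0.91 (FDR = 0.027), where 1.61% of all genes passed. Both calls in AngII against CTRL were lost without either CTRL library, without AngII replicate 2 or without either AngII+2W library, and that of Nr3c2 also without AngII replicate 1, with library totals (FDR = 0.0561) and in a fit of the 2 groups alone (FDR = 0.0668).

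The other 18 genes tested did not pass in AngII. Nln (neurolysin, 0.50, FDR = 0.0587) and Arap1 (a protein that aids transport of the AT1 receptor to the cell surface, 0.62, FDR = 0.101) had the next smallest p-values after Prcp and Nr3c2, and DESeq2 called both, beside 9.24% of all genes. Arap1 also passed in the fit without AngII+3W replicate 1. Ren1, the renin gene, stood at 2.14 and 2.07 CPM in CTRL and at 1.62 and 1.94 CPM in AngII (log2 fold change -0.24, FDR = 0.727). The mast cell proteases Cma1 (0.88, FDR = 0.371), Cpa3 (0.87, FDR = 0.403) and Mcpt4 (0.50, FDR = 0.592) did not pass, and these 3 are also in the list of mast cell markers. Mas1, Mrgprd, Bdkrb1, Klk1, Ctsg and Hsd11b2 were too low to be tested. The smallest p-values in AngII+2W against CTRL were those of Prep (prolyl endopeptidase, -0.23, FDR = 0.519) and Ctsd (cathepsin D, 0.18, FDR = 0.759). Those in AngII+3W against CTRL were Ctsa (cathepsin A, -0.34, FDR = 0.426) and Nr3c2 (0.27, FDR = 0.452). Those in AngII+3W against AngII+2W were Nr3c2 (0.28, FDR = 0.59) and the peptidase Dpp3 (-0.30, FDR = 0.607). Over the 20 genes, the median log2 fold change against CTRL in the AngII libraries was 0.17, that in AngII+2W -0.02 and that in AngII+3W -0.13.

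**Figure D4:**
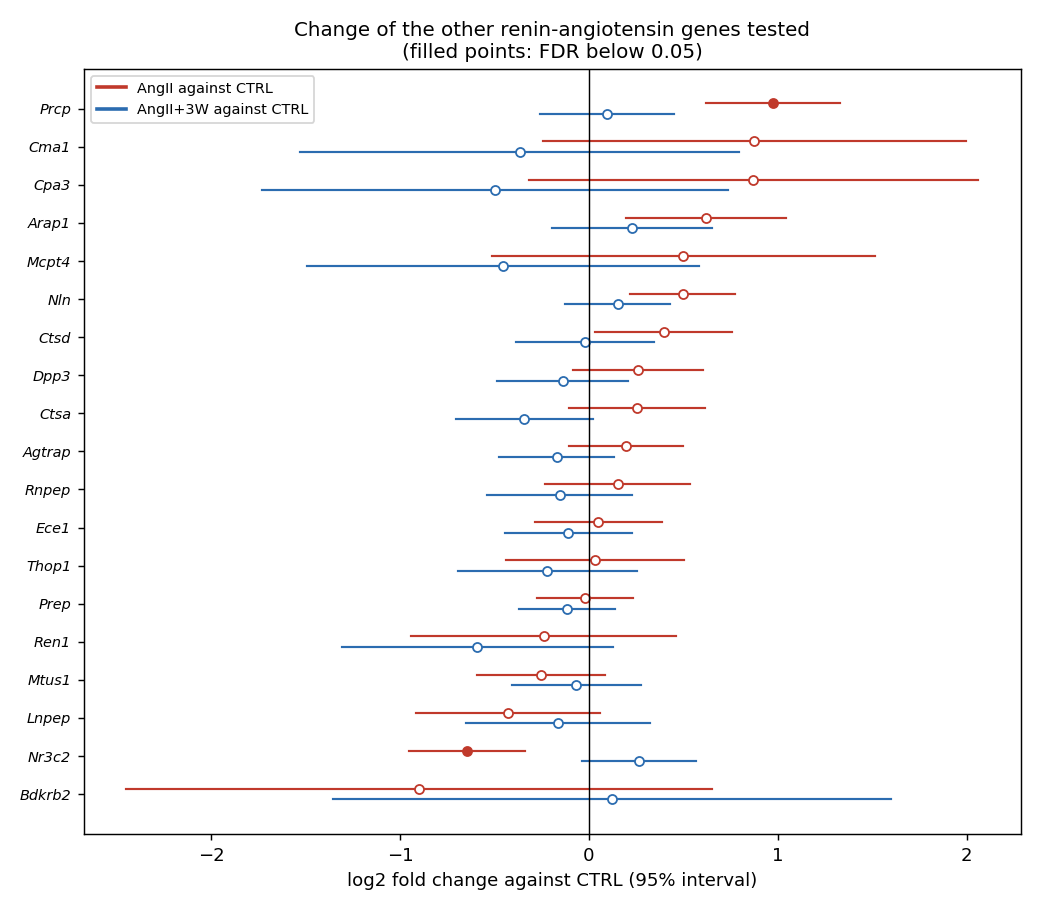
Log2 fold change against CTRL (horizontal axis) of 19 of the 20 other pathway genes tested, in AngII and AngII+3W, with bars for the 95% interval and filled points for an FDR below 0.05. Prcp (0.98) and Nr3c2 (-0.65) in AngII are the filled points, and no AngII+3W point is filled.

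The libraries held 18130441 to 21498200 counts. A limit of 3 counts corresponded to 0.14 to 0.162 CPM. The 6 smooth muscle markers, which define the aortic wall, were all present. They summed to 7025 to 9098 CPM in CTRL, 1624 to 2073 in AngII, 3354 to 3727 in AngII+2W and 1646 to 3184 in AngII+3W. Against CTRL, 5 of the 6 were lower in AngII, where 2.20% of all genes tested passed as lower. In AngII+3W 3 of the 6 were lower, where 0.268% of all genes did so. The 5 cardiac markers summed to 1967 to 4380 CPM in CTRL, 772 to 1176 in AngII, 80.9 to 219.9 in AngII+2W and 409 to 5110 in AngII+3W. CTRL replicate 2, with the lower of the CTRL sums, thus still lay above both AngII libraries. AngII+3W replicate 1 also differed in skeletal muscle markers. The 5 of these summed to 1318 CPM in it and to 4.73 to 73.3 CPM in the other libraries. The 4 adipocyte markers summed to 1501 to 2156 CPM over all libraries. The 2 brown adipocyte markers summed to 1192 to 1886 CPM in CTRL, 1771 to 2434 in AngII, 1077 to 1203 in AngII+2W and 1180 to 1802 in AngII+3W. The part of these differences in the results for the 9 genes was not tested. Without the libraries with the most cardiac marker counts (CTRL replicate 1 and AngII+3W replicate 1), 1 of the 9 genes passed in AngII against CTRL (Enpep, FDR = 0.0409), and Agtr2 (FDR = 0.0607) and Anpep (FDR = 0.0542) did not.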

How the data were processed

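Aortic RNA was depleted of ribosomal RNA and sequenced in 8 libraries, 2 in each of 4 groups. The authors quantified transcripts of GRCm38 with Salmon, run within ARMOR, and collapsed them to genes in tximeta. The deposited values are expected counts for each gene, given as whole numbers and without normalization. The form of length correction is not given in the sources used here. Library totals were 18130441 to 21498200 counts, and intervals and the limit of 3 counts cover counting error only.

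Groups and replicate numbers were taken from the sample labels. Genes were filtered with filterByExpr, scaled by TMM and tested with edgeR 4.0.16 in R 4.3.3 (quasi-likelihood F test, older form, two-sided, all 8 libraries in 1 model). The authors also used edgeR. All 6 comparisons between groups were made, and p-values were adjusted over 17182 genes by the Benjamini-Hochberg method at a threshold of 0.05. An exact permutation test of 2 against 2 libraries cannot go below 0.333 and was not used. CPM uses TMM-scaled totals. Standard errors were derived from the F statistic, and 95% intervals use the moderated degrees of freedom. The method was tested on simulated data in AngII against CTRL over 17182 genes. It recovered 86% of 100 genes changed by 2 on the log2 scale and 34% of 100 genes changed by 1. These genes were drawn from those with a mean of at least 1 CPM over the 8 libraries, which Agtr1b and Agtr2 did not reach. The method also made 13 false calls in AngII against CTRL, and 2 calls in the comparison left unchanged.

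The 9 genes and the other lists were chosen with earlier results of these data known. The text names the 9 genes, the other pathway genes that passed against CTRL (where none passed, those with the 2 smallest p-values), and the 3 genes most correlated with each of the 9 that passed (log2 CPM, prior count 2). Other genes named by their values (Nln, Arap1, Ren1, Cma1, Cpa3, Mcpt4) were chosen after these were seen, and 1 gene of the pathway list is not reported here. Positions and exon lengths came from a GENCODE annotation of GRCm38 that holds 98.9% of the gene identifiers, sequences from GENCODE transcripts and RefSeq promoters, and similar transcripts from BLAST 2.17.0. Alternatives were other scalings, filters and tests (DESeq2 1.42.0, limma 3.58.1), a replicate block, the 2 groups alone and leaving out libraries.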

Additional observations from a re-analysis of the deposited data

Results flagged for a closer look

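Of the values examined, 2 differed between the AngII group and the AngII+3W group when both were set against CTRL. Each was tested as the direct contrast of AngII+3W with AngII in the edgeR quasi-likelihood test, adjusted over all 17182 genes. Prcp, which was 0.98 above CTRL on the log2 scale in AngII and 0.10 above it in AngII+3W, differed by -0.88 between the groups (FDR = 0.0428). Nr3c2, which was -0.65 from CTRL in AngII and 0.27 from it in AngII+3W, differed by 0.91 (FDR = 0.027). Neither difference passed without either CTRL library, either AngII library, either AngII+2W library or AngII+3W replicate 1. None of the 9 receptor, precursor and peptidase genes met this criterion, and groups of 2 libraries were not examined for outlying samples.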

How the results depend on the processing

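Of the 9 genes, 3 passed in AngII against CTRL. With the replicate block, 1 did (Agtr2, FDR = 0.039), while Enpep (FDR = 0.0593) and Anpep (FDR = 0.0717) did not. The replicate numbers mark different mice, and the replicate differences of 2 groups correlated at -0.01 to 0.389 over 15159 genes, above 0.1 in 3 of 6 pairs of groups, so the numbers were taken as names only. The replicate block also moved the other pathway genes in AngII+3W against AngII from 2 to 1 (Nr3c2). With 1 library left out, the number of the 9 genes ranged from 0 to 3 in AngII against CTRL, from 0 to 1 in AngII+2W against AngII and from 0 to 1 in AngII+3W against AngII, and the number of other pathway genes ranged from 0 to 3, 0 to 1 and 0 to 2. Without AngII replicate 2, 0 of all genes tested passed in AngII against CTRL. A library left alone in its group was assumed to vary like the others, and these fits tested 17742 to 17896 genes. In AngII against CTRL, the other pathway genes that passed (2) numbered 1 with library totals, 4 with DESeq2, 1 with the 2 groups alone and 3 (with Arap1) with the replicate block and without AngII+3W replicate 1. In AngII+2W against AngII, 2 of the 9 genes (Agt and Agtr2) and 2 other genes passed with the 2 groups alone, and 1 other gene with every gene of at least 1 count and 2 with DESeq2. In AngII+3W against AngII, 3 of the 9 genes passed with DESeq2 and 1 with the newer quasi-likelihood form, and the other genes numbered 1 with library totals and 0 with the 2 groups alone. The cause of these changes was not tested.

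Leaving out CTRL replicate 1 and AngII+3W replicate 1, an alternative chosen after seeing the data, gave 1 of the 9 genes in AngII against CTRL, in AngII+2W against AngII and in AngII+3W against AngII, and 2 and 1 other genes in the latter comparisons. It turned the sign of Dpp3 in AngII+2W against CTRL (-0.012), of Ace against CTRL in AngII (0.42), AngII+2W (0.45) and AngII+3W (0.46), and of Agtr1a (-0.046), Agtr1b (0.19), Enpep (-0.19) and Atp6ap2 (0.024) in AngII+3W against CTRL. It also turned Ace (0.038) and Agtr1a (-0.28) in AngII+3W against AngII, and Ace (0.0039), Agtr1a (-0.19) and Mme (-0.16) in AngII+3W against AngII+2W. Library totals turned Ace (0.014) and Prep (0.012) in AngII against CTRL, Ace (0.013) and Nr3c2 (0.0071) in AngII+2W against CTRL, Ace in AngII+2W against AngII (-0.00079), Agtr1a in AngII+3W against AngII (-0.020) and Prcp in AngII+3W against AngII+2W (-0.013). Limma-voom turned Ace in AngII+2W against CTRL (0.017). With 1 library left out, further values spanned 0. In AngII against CTRL these were Ace (-0.40 to 0.43) and Mme (-0.17 to 0.28). In AngII+2W against CTRL they were Ace (-0.36 to 0.47), Atp6ap2 (-0.0097 to 0.49), Prcp (-0.0031 to 0.13) and Nr3c2 (-0.063 to 0.030). In AngII+3W against CTRL they were Agtr1b (-0.52 to 0.18), Enpep (-0.10 to 0.34), Anpep (-0.097 to 0.86), Atp6ap2 (-0.39 to 0.11), Prcp (-0.027 to 0.16), Ctsd (-0.15 to 0.10) and Dpp3 (-0.31 to 0.040). In AngII+2W against AngII they were Agtr1a (-0.30 to 0.076) and Ace (-0.28 to 0.40), and in AngII+3W against AngII they were Agtr1a (-0.28 to 0.29) and Ace (-1.25 to 0.037). In AngII+3W against AngII+2W they were Agtr1a (-0.19 to 0.39), Ace (-1.27 to 0.0026), Agt (-2.001 to 0.23), Mme (-0.16 to 0.28) and Prcp (-0.091 to 0.093). None of the values that turned passed the test. Of the alternative values for named genes, 1428 kept direction and side of the threshold, 52 turned, 55 lost the threshold and 21 gained it. No fold of Agtr2 was given between groups without AngII, where both groups were at or under the limit of 3 counts. Agtr2 gave no value with at least 10 counts in every library. The scalings moved the median of all genes by less than 0.1. Levels per kilobase of the longest transcript in place of all exons moved by more than 1 SD in 13 of 36 values, with the same order of the 9 genes in each group. At this depth, Agtr1b and Agtr2 were limited by depth.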
